A study of Homo sapiens with 18 samples.

Results

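Homologous recombination, Fanconi anaemia and mismatch repair genes were followed in 3 hepatocellular carcinoma cell lines after knockdown of ATAD2. The set was a list of 28 genes, and each gene was represented by the probe set with the highest mean among those annotated to that gene alone. Of the 28 genes, 24 had such a probe set, with 54 probe sets between them, out of 19775 genes and 54675 probe sets on the array. BRCA2, FANCA and FANCD2 were not analysed here, and neither was PMS2, whose 2 probe sets are shared with other genes. ATAD2 encodes a chromatin-bound ATPase with a bromodomain, and its mRNA was targeted with siRNA in the established lines Hep3B, SNU449 and PLC/PRF/5 (PLC below). There were 18 arrays, 3 of ATAD2 siRNA and 3 of control siRNA in every line. The labels call the siRNA arrays knockouts, but the design and the treatment protocol describe siRNA transfection with Lipofectamine RNAiMax of cells grown in RPMI, for treated and control cells alike. The labels call the 3 arrays of a group biological replicates and do not give the time after transfection. The p-values measure only the spread between these arrays.

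A double-strand break in DNA is sensed by the MRE11, RAD50 and NBN complex and by the kinase ATM, while ATR answers to stretches of single-stranded DNA. Nucleases and helicases such as EXO1 and BLM then resect the ends, and BRCA1 with its partner BARD1, PALB2 and BRCA2 act in the repair of the break from the sister chromatid. The Fanconi pathway removes crosslinks between the strands. Its core complex, with FANCL as the ubiquitin ligase, marks FANCI and FANCD2, and BRCA1, PALB2, BRIP1 and RAD51C also count as Fanconi genes. In mismatch repair, MSH6 and MSH3 take part in binding mispaired bases and small loops left by replication. Much of this machinery is made in dividing cells, in S phase in particular.

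All values below are log2 signals after quantile normalization over the 18 arrays, and an adjusted p is from limma, corrected over all 19775 genes. The log2 change of ATAD2 itself was -3.80, -2.39 and -2.62 in Hep3B, SNU449 and PLC, which is 13.9-, 5.23- and 6.14-fold, with all knockdown arrays below all controls. The labels of 2 lines ran against the usual description of these cells. RB1, picked out because earlier results of these data showed it, had a signal of 4.44 on control arrays labelled SNU449, 8.57 in PLC and 9.47 on those labelled Hep3B, a line known to lack it. ALB stood at 13.8 under the SNU449 label, at 10.6 in PLC and at 3.03 under the Hep3B label. The fibrinogen genes FGB and FGG went the other way between these 2 labels. FGB had a control mean of 11.5 under the Hep3B label and 6.88 under the SNU449 label, and FGG 10.5 and 8.70. FGA did not, with 7.40 under the Hep3B label and 8.70 under the SNU449 label. Of 22 hepatocyte markers, 12 had a control mean below 5 under the Hep3B label, 0 under the SNU449 label and 2 in PLC. On control arrays the mean of 18 mesenchymal markers was 7.84 to 7.86 under the Hep3B label and 6.08 to 6.14 under the SNU449 label. That of 10 epithelial markers was 5.72 to 5.75 under the Hep3B label and 8.39 to 8.42 under the SNU449 label. Among 9 leukocyte and endothelial markers the mean level was 4.45 to 4.92 on all arrays. Over the groups PTPRC averaged 2.77 to 3.66, CD3E 5.79 to 6.28 and PECAM1 6.12 to 6.89. The line names below stand for the arrays so labelled, and each knockdown is compared with controls of the same label. Some arrays also stood apart in 5′ to 3′ signal, a measure of RNA quality. The 5′ minus 3′ signal of the actin and GAPDH control probe sets was -1.15 and -1.09 on PLC ATAD2 siRNA replicates 1 and 3, against -0.45 on replicate 2 and -0.59 to -0.44 on the PLC controls. In Hep3B the ATAD2 siRNA arrays had -0.79, -0.42 and -0.71 and the controls -0.78 to -0.65, so that replicate 2 differed. The part of RNA quality in the results was not tested beyond the fits given beside them.

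Repair genes were lower in Hep3B after ATAD2 knockdown, and by modest amounts. Of 24 genes 9 fell, where 7.74% of all genes tested fell, and 0 rose, where 8.68% of all genes did. The 9 were FANCL, BLM, MSH3, BARD1, FANCC, RAD51C, ATM, FANCI and MSH6, spread over every step of the pathway, with falls of 0.21 to 0.43. The 24 genes are bright ones, with 0 below the 30th percentile of mean signal and 1 below the 50th. Without the dimmest 30% of genes 10 fell, where 13.2% of the genes left did. Without the dimmest 50%, 11 fell, where 17.2% did, and 1 rose. The median log2 change of the 24 genes was -0.21, against -0.02 over all genes, and 17 of 24 lay below 0, against 55.2% of all genes. That median was -0.12 without ATAD2 siRNA replicate 2 of Hep3B, -0.12 on the values as deposited, -0.087 with each array centred on its median and -0.083 when the probe sets of each gene were averaged. For 11 genes all ATAD2 siRNA arrays were lower than all control arrays, which held for 17.3% of all genes, and for 1 gene, PALB2, all were higher, which held for 15.5%. In SNU449 and in PLC 0 of 24 genes passed the threshold in either direction. The fall was uneven over the Hep3B ATAD2 siRNA arrays: the median of the 24 genes against the control mean was -0.16, -0.27 and -0.09 on replicates 1, 2 and 3. Without replicate 2, the array that differed in 5′ to 3′ signal, 6 genes fell, where 6.7% of all genes did. With the 5′ to 3′ signal as a covariate, an alternative chosen after seeing the data, 9 fell, with BRCA1 in and ATM out. Of all genes, 8.37% fell with that covariate. On the values as deposited 3 genes fell (BLM, FANCC and FANCL; 5.9% of all genes), and 2 (BLM and FANCL; 4.19%) with each array centred on its median. In whole cultures, fewer cells that express a gene and less RNA per cell cannot be told apart.

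**Figure D1:**
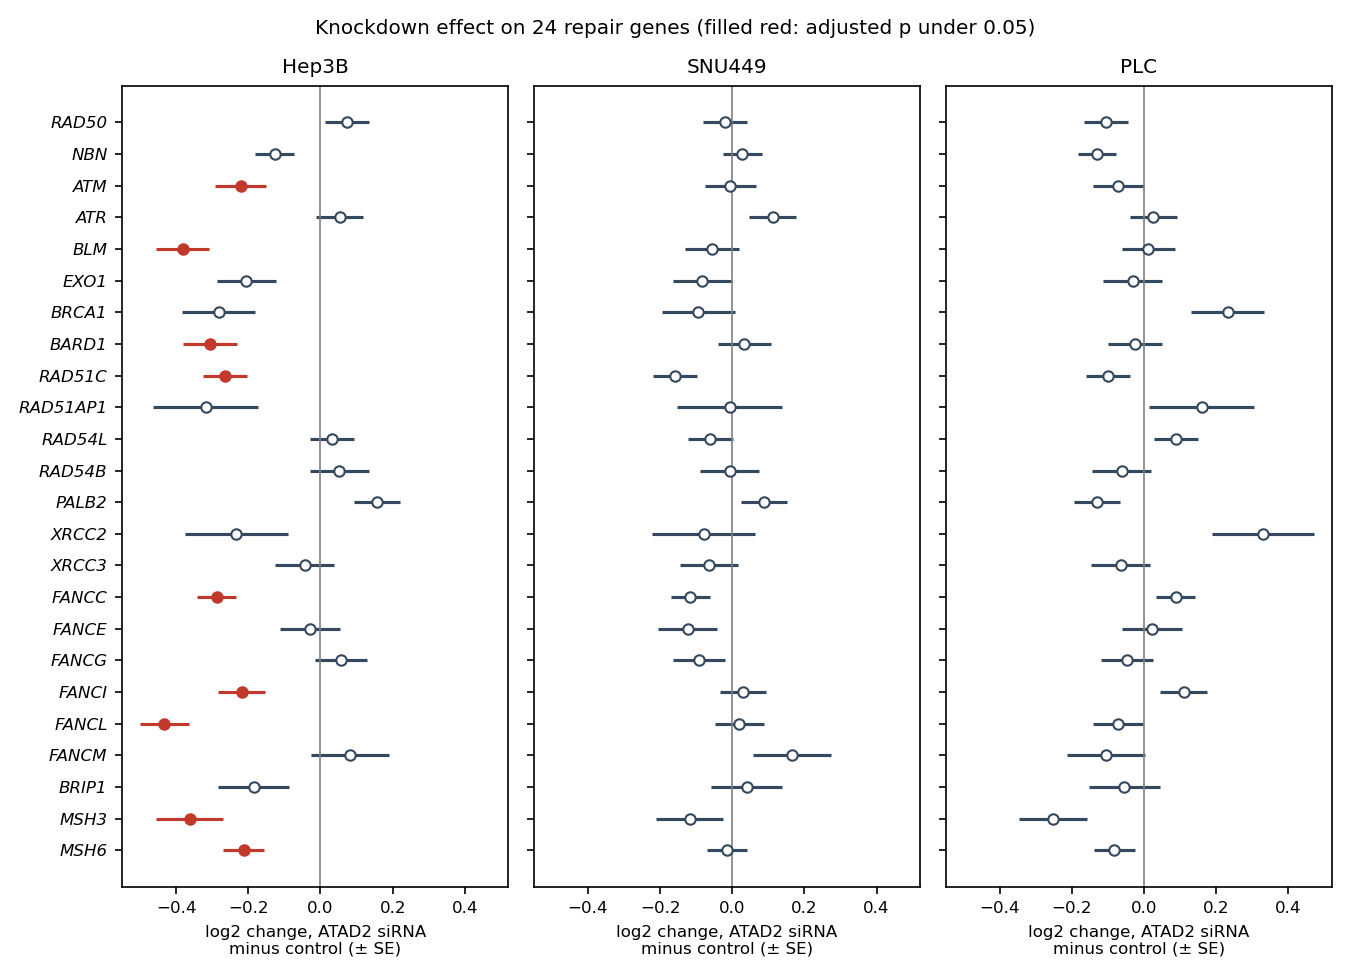
Knockdown effect on each of the 24 repair genes by cell line, as the log2 signal of ATAD2 siRNA minus control arrays with its standard error (3 arrays in each group; filled red where the adjusted p is under 0.05). In Hep3B the 9 red points lie between -0.43 and -0.21, while no gene is filled in SNU449 or PLC.

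Among the sensors of damage ATM, the kinase that starts the response to double-strand breaks, fell in Hep3B. ATAD2 siRNA arrays had a log2 signal of 7.68, 7.67 and 7.67, against 7.75, 7.86 and 8.06 on the controls. The groups did not overlap, but the spread lay almost wholly in the controls. The change was -0.22 ± 0.07 (SE, n = 3 each; limma, adjusted p = 0.0436), and it was the least stable of the 9. Of 30 other settings, 18 that leave out one array and 12 others, the ATM call held in 12. It missed the threshold with Hep3B control replicate 2 (adjusted p = 0.0839) or 3 (0.231) left out, without ATAD2 siRNA replicate 1 (0.0826), 2 (0.0888) or 3 (0.0932) of Hep3B, and at 0.0509 to 0.0556 without SNU449 control replicate 2, SNU449 ATAD2 siRNA replicate 3 or any of the PLC controls. The other sensors did not pass. NBN, a subunit of the break-binding complex, changed by -0.13 (adjusted p = 0.13) with overlapping groups, while its partner RAD50 at 0.07 and the kinase ATR at 0.05 lay above 0.

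Of the genes of end resection, BLM fell. BLM is the RecQ helicase mutated in Bloom syndrome, which unwinds DNA ends and dissolves crossed strands after repair. Hep3B ATAD2 siRNA arrays had a signal of 6.62, 6.30 and 6.58, against 6.94, 6.88 and 6.83 on the controls. Every knockdown array lay below every control, replicate 2 lowest. The change was -0.38 ± 0.07 (SE, n = 3 each), a fall of 1.30-fold (limma, adjusted p = 0.0015), and BLM passed in all 30 other settings. Its promoter is shown as one of those of the 6 genes with the largest falls in Hep3B. It spans chr15:90717096-90717395 on the + strand of GRCh38.p14, from 250 bases before to 50 after the RefSeq start site, and the capitals mark CCAAT box letters, on the reverse strand (ATTGG) at positions -141 and -46 and on the forward strand at -21 from the start.
BLM: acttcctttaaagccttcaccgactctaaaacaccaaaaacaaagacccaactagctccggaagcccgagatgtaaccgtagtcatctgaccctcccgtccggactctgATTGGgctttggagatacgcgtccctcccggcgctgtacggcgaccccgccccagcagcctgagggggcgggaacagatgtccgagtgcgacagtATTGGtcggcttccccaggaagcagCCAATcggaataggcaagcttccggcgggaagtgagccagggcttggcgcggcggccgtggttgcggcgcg
EXO1, a nuclease of resection and of mismatch repair, had 7.81, 7.53 and 7.92 on Hep3B ATAD2 siRNA arrays, against 8.07, 7.96 and 7.85 on the controls. The groups overlapped, and the change of -0.21 ± 0.08 did not pass (limma, adjusted p = 0.105), although it did without ATAD2 siRNA replicate 3 (-0.29, adjusted p = 0.0259). EXO1 passed in 2 of the 30 other settings, with an adjusted p up to 0.587.

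The 9 genes of strand exchange and its loading gave 2 falls in Hep3B, of BARD1 and RAD51C. BARD1, the partner that BRCA1 needs for its ubiquitin ligase activity, had 8.30, 8.19 and 8.58 on the ATAD2 siRNA arrays, against 8.67, 8.73 and 8.59 on the controls. Knockdown replicate 3 came close to the lowest control without crossing it. The change was -0.31 ± 0.07 (SE, n = 3 each; limma, adjusted p = 0.00826), and the call held without each array in turn. BARD1 passed in 27 of 30 other settings. It did not pass on the values as deposited (adjusted p = 0.052), with arrays centred (0.124) or with each line fitted by itself (0.0797). RAD51C, which acts in early and late steps of recombination, had 8.25, 8.12 and 8.25 on the ATAD2 siRNA arrays, against 8.42, 8.51 and 8.48 on the controls. These groups lay well apart, with a change of -0.27 ± 0.06 (limma, adjusted p = 0.00582), and the call held without each array in turn. Of the 30 other settings RAD51C passed in 27. It was lost on the values as deposited (adjusted p = 0.102), with arrays centred (0.255) and with the mean of its probe sets (-0.096, 0.372). The promoters of both genes, shown beside that of BLM as those of the lowered recombination genes, held none of the letters searched. That of BARD1 is chr2:214809634-214809933, - strand, and that of RAD51C chr17:58692323-58692622, + strand.
BARD1: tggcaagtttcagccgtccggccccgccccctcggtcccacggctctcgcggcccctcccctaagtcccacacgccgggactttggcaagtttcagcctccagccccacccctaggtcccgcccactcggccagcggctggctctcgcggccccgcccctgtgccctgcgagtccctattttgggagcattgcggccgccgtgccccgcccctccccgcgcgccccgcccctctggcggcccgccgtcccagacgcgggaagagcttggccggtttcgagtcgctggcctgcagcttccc
RAD51C: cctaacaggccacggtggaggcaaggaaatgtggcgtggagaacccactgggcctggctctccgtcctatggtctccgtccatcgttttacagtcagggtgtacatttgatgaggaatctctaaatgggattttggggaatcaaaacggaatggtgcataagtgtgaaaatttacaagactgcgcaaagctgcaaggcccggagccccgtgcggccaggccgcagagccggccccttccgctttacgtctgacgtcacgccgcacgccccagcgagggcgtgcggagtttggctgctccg
BRCA1, which directs breaks to recombination, had 7.80, 7.52 and 7.85 on the Hep3B ATAD2 siRNA arrays, against 7.99, 8.01 and 8.01 on the controls. All knockdown arrays were lower than all controls, yet the change of -0.28 ± 0.10 missed the threshold (limma, adjusted p = 0.0706). Without PLC ATAD2 siRNA replicate 2 the adjusted p was 0.0128, and with the mean of both BRCA1 probe sets it was 0.00307. BRCA1 passed in 7 of the 30 other settings, and its adjusted p reached 0.329 with each array centred on its median. RAD51AP1, which promotes strand pairing, had 9.48, 8.82 and 9.57 against 9.53, 9.71 and 9.58. Replicate 2 lay far below the rest, and the change of -0.32 did not pass (adjusted p = 0.166). PALB2, the bridge between BRCA1 and BRCA2, went the other way, with 7.84, 7.95 and 7.82 on the ATAD2 siRNA arrays and 7.70, 7.70 and 7.74 on the controls. The groups did not overlap, and the difference of 0.16 ± 0.06 did not pass (limma, adjusted p = 0.117). The other 4 had overlapping groups: XRCC2 at -0.23 and XRCC3 at -0.04, both recombination genes, and the motor proteins RAD54L at 0.03 and RAD54B at 0.05. XRCC2 passed in 1 of the 30 other settings, without Hep3B ATAD2 siRNA replicate 1 (-0.41, adjusted p = 0.0494).

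In the Fanconi pathway 3 of 7 genes fell in Hep3B. FANCL, the ligase subunit of the core complex, had 8.37, 8.24 and 8.53 on the ATAD2 siRNA arrays, against 8.74, 8.82 and 8.88 on the controls. The groups did not overlap, and knockdown replicate 3 lay nearest to the controls. The change was -0.43 ± 0.07 (SE, n = 3 each), or 1.35-fold, the largest among the 24 genes (limma, adjusted p = 0.000263), and it passed in all 30 other settings. FANCC, another core subunit, had 7.14, 7.12 and 7.23 against 7.43, 7.44 and 7.48, with no overlap. It changed by -0.29 ± 0.05 (limma, adjusted p = 0.00134), and the call held without each array in turn. FANCC passed in 28 of the 30 other settings. It did not pass with arrays centred (-0.15, adjusted p = 0.121) or with the mean of all probe sets (-0.070, 0.524). The promoters of these lowered core genes are chr2:58241276-58241575 for FANCL and chr9:95317660-95317959 for FANCC, both on the - strand. That of FANCL held none of the letters searched. In that of FANCC the capitals mark TTTGAA, one form of the cell cycle homology region, at position -248 and TTTCCCGC, one form of the E2F site, at -46.
FANCL: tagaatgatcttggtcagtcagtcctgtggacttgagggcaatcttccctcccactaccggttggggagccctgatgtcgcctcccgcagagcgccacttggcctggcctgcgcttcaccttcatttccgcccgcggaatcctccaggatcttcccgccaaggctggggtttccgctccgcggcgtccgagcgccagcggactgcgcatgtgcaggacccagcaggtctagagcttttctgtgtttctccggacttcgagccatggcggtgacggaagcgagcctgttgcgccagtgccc
FANCC: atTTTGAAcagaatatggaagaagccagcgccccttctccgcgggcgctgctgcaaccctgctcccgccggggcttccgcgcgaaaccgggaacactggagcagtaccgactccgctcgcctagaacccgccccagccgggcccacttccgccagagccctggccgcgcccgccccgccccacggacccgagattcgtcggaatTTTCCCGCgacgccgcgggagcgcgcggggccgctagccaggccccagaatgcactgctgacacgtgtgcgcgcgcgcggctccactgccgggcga
FANCI, which the core complex marks together with FANCD2, had 8.83, 8.69 and 8.88 on the ATAD2 siRNA arrays, against 9.06, 8.99 and 9.001 on the controls. There was no overlap, and the change was -0.22 ± 0.06 (limma, adjusted p = 0.0294). The call did not survive leaving out Hep3B control replicate 1 (adjusted p = 0.098), 2 (0.0597) or 3 (0.065), and was also lost without ATAD2 siRNA replicate 2 (0.122). FANCI passed in 21 of the 30 other settings. BRIP1, a helicase that binds BRCA1, had 8.47, 8.44 and 8.69 against 8.70, 8.76 and 8.695, so that knockdown replicate 3 all but met the lowest control. The change of -0.19 did not pass (adjusted p = 0.251). The core subunits FANCE at -0.03 and FANCG at 0.06 and the translocase gene FANCM at 0.08 had overlapping groups.

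Both mismatch repair genes fell in Hep3B. MSH3, which recognises larger loops, had 7.06, 7.25 and 7.16 on the ATAD2 siRNA arrays, against 7.56, 7.47 and 7.54 on the controls. The groups were clearly separate, and here replicate 2 was the highest of the knockdown arrays. The change was -0.36 ± 0.09 (SE, n = 3 each), a fall of 1.29-fold (limma, adjusted p = 0.0122), and it did not pass without ATAD2 siRNA replicate 1 (-0.31, adjusted p = 0.0555). MSH3 passed in 25 of the 30 other settings. MSH6, which recognises single mispairs, had 9.95, 9.84 and 9.95 on the ATAD2 siRNA arrays, against 10.19, 10.13 and 10.07 on the controls, again without overlap. It changed by -0.21 ± 0.06 (limma, adjusted p = 0.015), and the call was lost without Hep3B control replicate 1 (0.0694) or ATAD2 siRNA replicate 2 (0.0575). MSH6 passed in 23 of the 30 other settings. The promoter of MSH3, the more strongly lowered gene, is chr5:80654402-80654701 on the + strand, and the capitals mark the E2F letters TTTGGCGC at position -107.
MSH3: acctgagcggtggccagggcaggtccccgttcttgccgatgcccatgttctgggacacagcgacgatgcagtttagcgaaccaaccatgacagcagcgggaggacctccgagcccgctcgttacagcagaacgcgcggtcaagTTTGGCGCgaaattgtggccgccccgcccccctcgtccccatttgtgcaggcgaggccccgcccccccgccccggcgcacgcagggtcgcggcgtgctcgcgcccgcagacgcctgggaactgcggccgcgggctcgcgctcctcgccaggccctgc

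**Figure D2:**
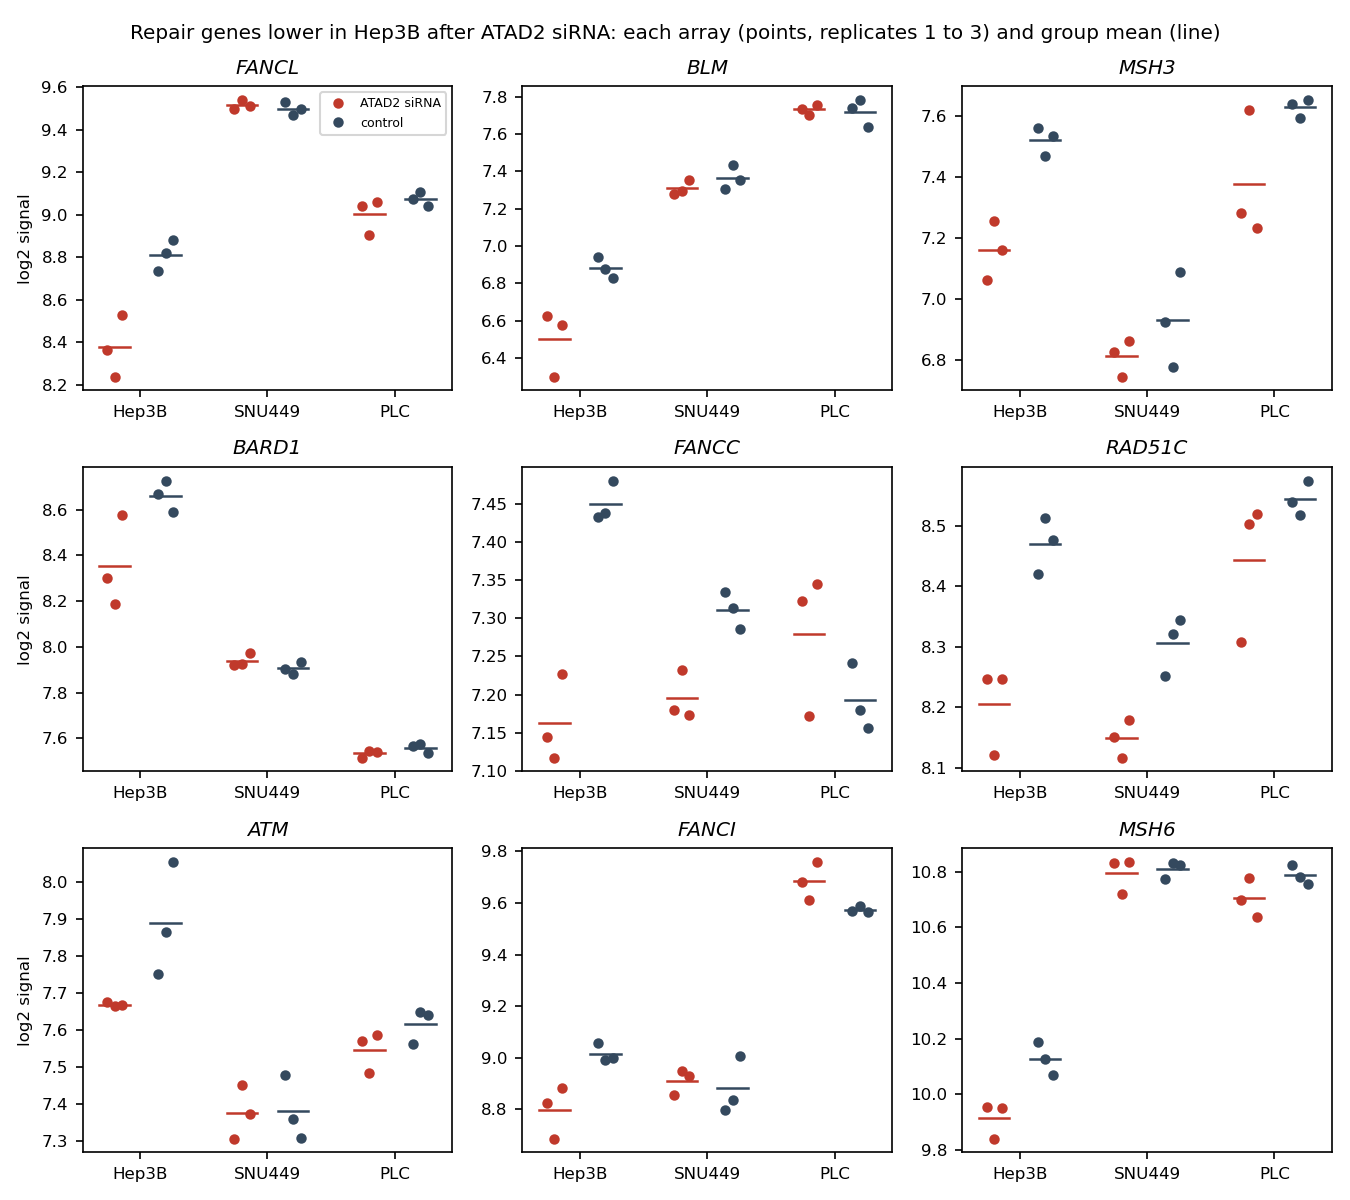
Log2 signal of the 9 repair genes lowered in Hep3B, on each array (points) with the group mean (line), for ATAD2 siRNA (red, left) and control (dark, right) in each cell line. In Hep3B the red and dark points of each gene do not overlap, whereas in SNU449 and PLC they overlap for most of these genes.

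The promoters were searched for letters known from cell cycle genes, since several of the 24 genes are made in S phase. A RefSeq promoter of GRCh38.p14 was found for 21 of the 24 genes, and the first one listed was used. E2F letters (TTTGGCGC, TTTCCCGC, TTTGGCGG or TTTCCCGG, on either strand) stood in 6 of the 21, or 28.6%, against 5.67% of 15384 tested genes with a promoter and 4.31% of all 35116 promoters listed. They stood in 3 of the 8 genes lowered in Hep3B, which were MSH3, MSH6 and FANCC, and in 3 of the other 13, which were ATR, RAD50 and XRCC2. Letters of the cell cycle homology region (TTTGAA or TTCGAA) stood in 14.3% of the 21, against 13.3% of tested genes, and CCAAT, on either strand, in 42.9% against 36.1%. These motifs do not overlap one another in the promoters printed. The letters describe the sequence, and whether a factor binds there was not tested.

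In SNU449 0 of 24 genes passed, where 0.111% of all genes fell and 0.147% rose. The changes of the 24 genes ran between -0.16 and 0.16 with a median of -0.02, equal to that of all genes to the second decimal, and 16 of 24 lay below 0, against 56.8% of all genes. An unadjusted p under 0.05 was reached by 2. These were RAD51C and FANCC. RAD51C had 8.15, 8.12 and 8.18 on the ATAD2 siRNA arrays, against 8.25, 8.32 and 8.34 on the controls. The groups did not overlap, and the change of -0.16 ± 0.06 did not pass (limma, adjusted p = 0.347). FANCC had 7.18, 7.23 and 7.17 against 7.33, 7.31 and 7.29, likewise apart, with a change of -0.12 ± 0.05 (limma, adjusted p = 0.482). FANCL stood at 9.50, 9.54 and 9.51 against 9.53, 9.47 and 9.50, a difference of 0.02, and BLM at 7.28, 7.30 and 7.35 against 7.31, 7.43 and 7.35. Neither gene separated the groups. In all, 3 genes, RAD51C, FANCC and BRCA1, had all ATAD2 siRNA arrays below all controls, where 13.2% of all genes did, and 1, FANCM, had all above, where 8.76% did. On the values as deposited the median of the 24 genes was 0.04, and 0.08 with arrays centred on their medians, so that its direction depended on the scaling. None of the 24 genes passed in SNU449 under any other setting tried.

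In PLC 0 of 24 genes passed, where 2.24% of all genes fell and 2.34% rose, and 4 had an unadjusted p under 0.05: XRCC2, BRCA1, MSH3 and NBN. The median change was -0.05, against 0.01 over all genes, and 15 of 24 lay below 0, against 46.4% of all genes. BRCA1 had 8.51, 8.09 and 8.53 on the ATAD2 siRNA arrays, against 8.23, 8.09 and 8.12 on the controls. Replicates 1 and 3 lay above every control and replicate 2 lay among them, and the change of 0.23 ± 0.10 did not pass (limma, adjusted p = 0.202). MSH3 showed the same split in the other direction, with 7.28, 7.62 and 7.23 against 7.64, 7.59 and 7.65 and a change of -0.25 ± 0.09 (adjusted p = 0.127). Replicate 2 was again among the controls. Without it BRCA1 at 0.37 (limma, adjusted p = 0.00651), MSH3 at -0.37 (0.00561) and PALB2 at -0.20 (0.0388) passed. The knockdown arrays left are those with the wide gap between 5′ and 3′ signal. With that signal as a covariate and all arrays kept, BRCA1, MSH3 and PALB2 did not pass in PLC. The part of the gap in these changes was not tested further. XRCC2 had 6.15, 6.08 and 5.89 on the ATAD2 siRNA arrays, against 5.60, 5.60 and 5.93 on the controls, where control replicate 3 lay above the lowest knockdown array (0.33 ± 0.14, limma, adjusted p = 0.196). NBN had 10.113, 10.155 and 10.132 on the ATAD2 siRNA arrays, against 10.315, 10.220 and 10.257 on the controls, and it was the 1 gene with all ATAD2 siRNA arrays below all controls, where 9.11% of all genes did (-0.13 ± 0.05, limma, adjusted p = 0.171). RAD54L at 0.09 and FANCI at 0.11 had all ATAD2 siRNA arrays above all controls, where 10.8% of all genes did.

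Whether the effect of the knockdown differed between the lines was tested directly. An F test over the differences of the log2 changes called 3 of 24 genes, FANCL (adjusted p = 0.0133), FANCC (0.0151) and BLM (0.042), where it called 9.18% of all genes. The count of 3 is near that share. Against Hep3B, the effect in PLC was higher for 5 genes, where this pair of lines differed for 9.7% of all genes in either direction: BRCA1 by 0.51, BLM by 0.39, FANCC by 0.37, FANCL by 0.36 and FANCI by 0.33. The BRCA1 difference rests on 1 of its 2 probe sets, the other having -0.25 in Hep3B and -0.29 in PLC. Its signal in PLC was above the controls on ATAD2 siRNA replicates 1 and 3, the arrays of wide 5′ to 3′ gap, and over the other settings the difference was as low as 0.20 (adjusted p up to 0.31). Against Hep3B, the effect in SNU449 was higher for FANCL by 0.45 ± 0.10 (limma, adjusted p = 0.0088), where 6.14% of all genes differed. Between SNU449 and PLC 0 of 24 genes differed, where 0.202% of all genes did. FANCL kept its F test call in 28 of 29 other settings in which the test could be made, and its difference between SNU449 and Hep3B in all 29. At a threshold of 0.01, where FANCL lost it, 0 of 24 genes passed the F test. The F test call of FANCC held in 22 and that of BLM in 9 of the 29 settings. When arrays were left out one at a time, BLM kept its F test call without Hep3B ATAD2 siRNA replicate 1 or 3, SNU449 control replicate 2, PLC control replicate 2 or PLC ATAD2 siRNA replicate 2, and lost it without any other. The differences between PLC and Hep3B held in 25 of 29 settings for FANCC, 20 for BLM, 17 for FANCL, 15 for BRCA1 and 14 for FANCI. Of the 18 settings that leave out one array, they held in 18 for FANCC, 15 for BLM, 12 for FANCL, 10 for BRCA1 and 9 for FANCI. For the other 6 genes lowered in Hep3B the F test did not pass, with adjusted p of 0.0617 for FANCI, 0.0843 for BARD1, 0.236 for MSH6, 0.324 for ATM, 0.411 for RAD51C and 0.439 for MSH3. Over the mean of the 3 lines 6 genes fell, RAD51C, BLM, MSH3, MSH6, FANCC and FANCL, where 6.24% of all genes fell, and 0 rose, where 6.8% did. RAD51C, MSH3 and FANCL kept this call without each array in turn, while BLM, MSH6 and FANCC, at 0.0361 to 0.047, lost it in 9, 15 and 11 of the 18 settings that leave out one array (adjusted p up to 0.0997).

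On the control arrays the lines differed in the level of some of these genes. A difference of at least 1 log2 unit was reached by 1 gene between SNU449 and Hep3B, where 19.7% of all genes did: PALB2 was higher in SNU449, at 9.03 ± 0.05 (SD, n = 3) against 7.71 ± 0.02 in Hep3B. Between PLC and Hep3B, where 18.4% of all genes did, BRIP1 at 6.83 ± 0.02 in PLC against 8.72 ± 0.03 in Hep3B and BARD1 at 7.56 ± 0.02 against 8.66 ± 0.07 were lower in PLC (limma, adjusted p = 2.09e-11 and 5.92e-10). Between SNU449 and PLC, where 19.2% of all genes did, BRIP1 by 1.36, PALB2 by 1.21 and XRCC2 by 1.04 were higher in SNU449 and NBN by -1.30 lower. Comparisons with PLC depended on the scaling, since the median of all genes between PLC and Hep3B was -0.02 after quantile normalization, -0.62 as deposited and 0.62 with arrays centred. BRIP1 kept its sign in all 3 (-1.89, -2.22 and -0.97), whereas BARD1 did not (-1.10, -1.24 and 0.01), and PALB2 between SNU449 and PLC had 1.21, 1.40 and -0.06. The difference of PALB2 between SNU449 and Hep3B was 1.32, 1.35 and 1.15. FANCL and BLM, the genes lowered most in Hep3B, had their lowest control level there: FANCL 9.50 in SNU449, 9.07 in PLC and 8.81 in Hep3B, and BLM 7.36, 7.72 and 6.88. Both genes were lowest in Hep3B under all 3 scalings, while the order of SNU449 and PLC changed for FANCL with arrays centred. The other lowered genes were mixed after quantile normalization. BARD1 at 8.66, FANCC at 7.45 and ATM at 7.89 had their highest control level in Hep3B, and MSH6 at 10.13 its lowest. MSH3, FANCI and RAD51C lay between the other lines there.

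**Figure D3:**
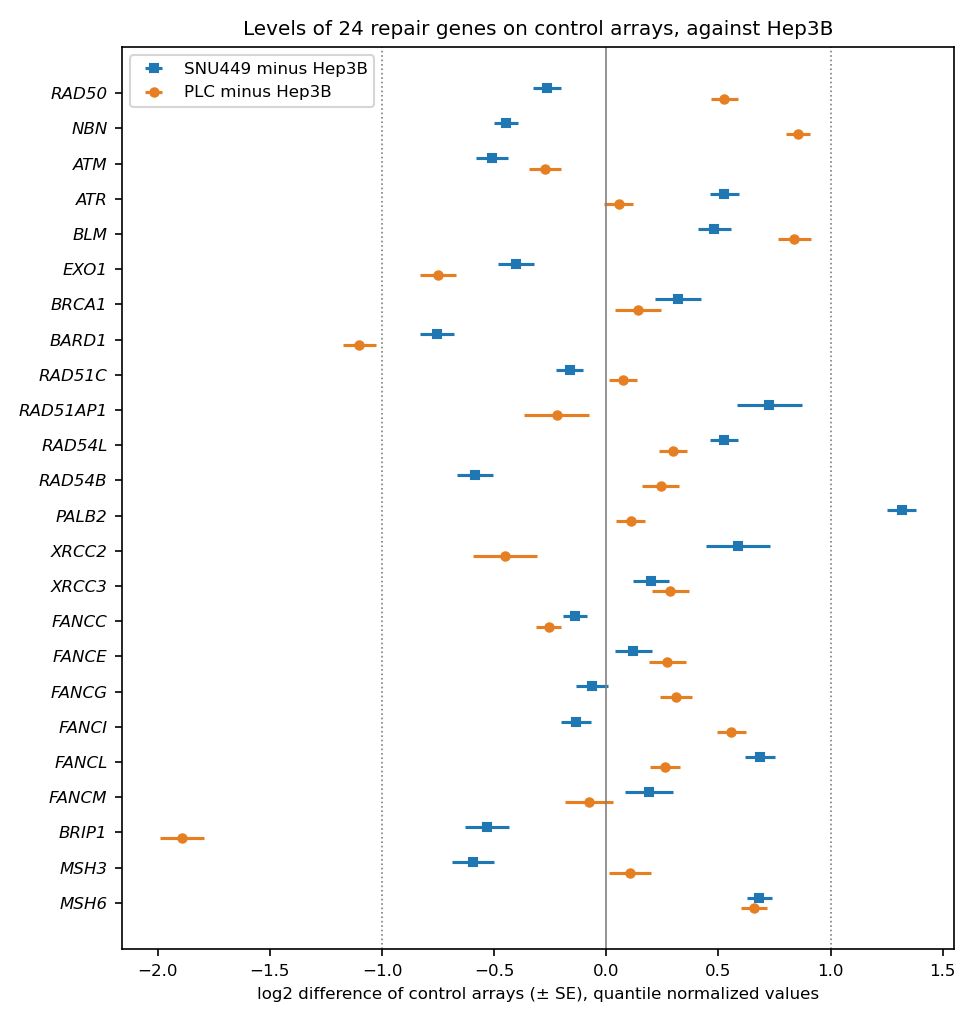
Log2 difference in the control level of each of the 24 repair genes, SNU449 minus Hep3B (squares) and PLC minus Hep3B (circles), with its standard error over 3 control arrays a line; dotted lines mark 1 log2 unit. PALB2 in SNU449 lies at 1.32, BRIP1 and BARD1 in PLC lie at -1.89 and -1.10, and the rest lie within the dotted lines.

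Other probe sets of the same genes were set beside those used. Of the 24 genes 13 had several probe sets, 30 further ones in all, and 11, FANCL and BLM among them, had 1. With every probe set tested by itself, an alternative chosen after seeing the data, 3 of the 30 fell in Hep3B and 0 rose, where 3.78% of all probe sets fell and 5.08% rose, and 19 lay below 0. BARD1 and MSH3 had a second probe set that fell (-0.28, adjusted p = 0.0453, and -0.36, adjusted p = 0.015, over all probe sets). Both further probe sets of FANCI lay near the one used, at -0.28 (adjusted p = 0.0138) and -0.27 (0.0667), against -0.22. The probe sets used for FANCI and ATM missed the threshold in this fit (adjusted p = 0.0636 and 0.0856). RAD51C had a second probe set at 0.07 (adjusted p = 0.774), and ATM had 5 others between -0.18 and 0.15, so that these falls rest on 1 probe set each. FANCC and MSH6 had others between -0.03 and 0.11 at mean signals of at most 4.31, and MSH6 also a brighter one at -0.26 (adjusted p = 0.255). In SNU449 0 of the 30 fell or rose, where 0.0238% of all probe sets fell and 0.0201% rose. In PLC, where 1.84% of all probe sets fell and 1.6% rose, 0 of the 30 rose and 2 fell: one of MSH6 at -0.58 (adjusted p = 0.0215) and one of RAD50 at -0.43 (adjusted p = 0.0172), while the probe sets used for these genes had -0.08 and -0.11. The BRCA1 probe sets opposed each other in PLC, at 0.23 for the one used and -0.29 for the other, and lay together in Hep3B at -0.28 and -0.25.

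**Figure D4:**
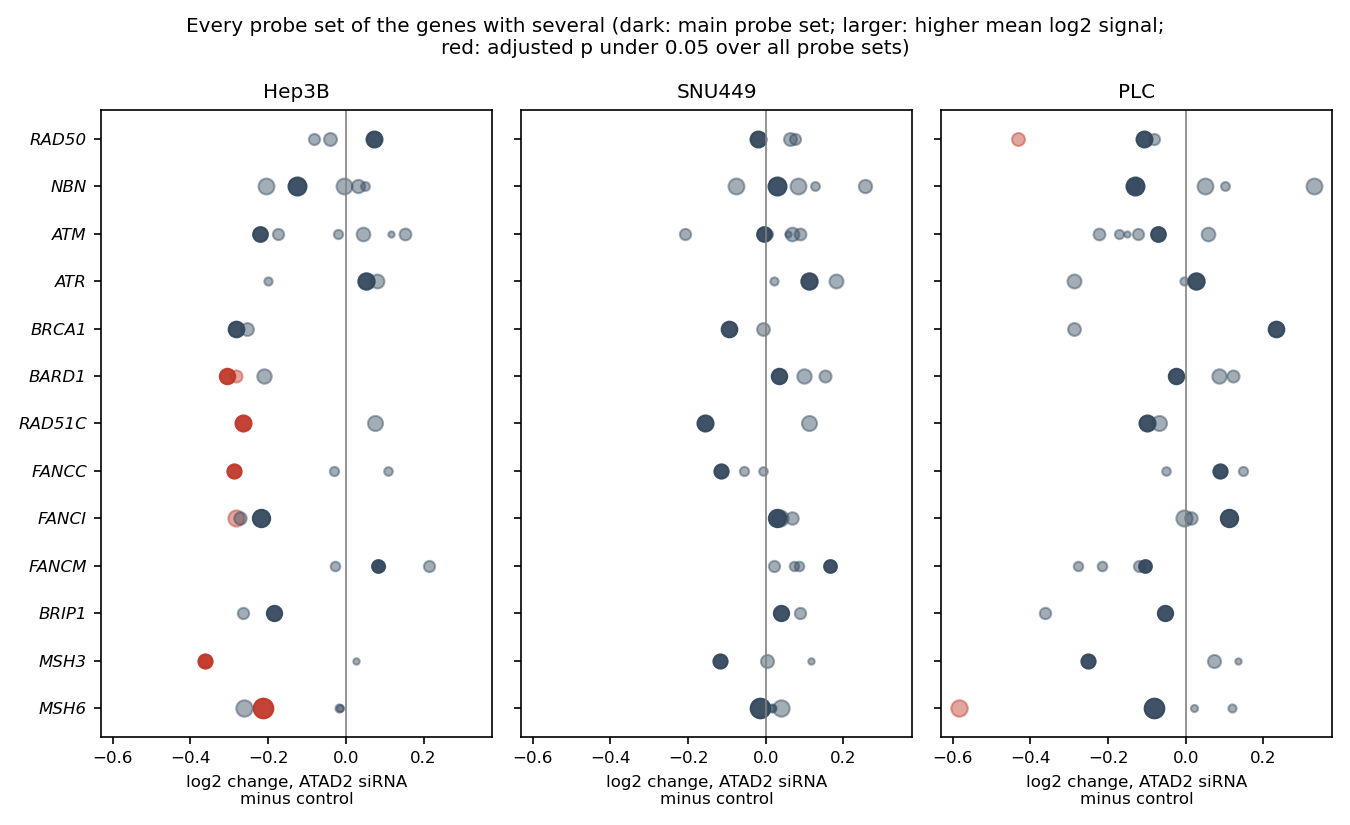
Log2 change of every probe set of the 13 repair genes with several, by cell line (dark or full red: the probe set used; larger points: higher mean log2 signal; red: adjusted p under 0.05 over all probe sets). The probe sets of BARD1 and FANCI lie together in Hep3B, those of RAD51C and ATM lie on both sides of 0, and those of BRCA1 oppose each other in PLC.

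Other genes of these pathways, from lists chosen with earlier results of these data known, were counted in the same fit. In homologous recombination 7 of 30 further genes fell in Hep3B, where 7.74% of all genes fell, and 1 rose, where 8.68% did (median -0.12). RMI2 at -0.64 (adjusted p = 3.83e-06) and RMI1 at -0.51 (5.38e-05), the subunits that join BLM in the dissolvasome, fell, as did the resection nuclease gene DNA2 at -0.50 (0.000819). RMI2 had 6.90, 6.86 and 6.92 on the ATAD2 siRNA arrays, against 7.56, 7.60 and 7.43 on the controls, and RMI1 7.82, 7.83 and 8.09 against 8.42, 8.42 and 8.43. Both groups lay far apart, and both calls held without each array in turn. In PLC DNA2 fell too, with 6.90, 6.96 and 6.94 against 7.50, 7.38 and 7.48 (-0.52, adjusted p = 0.00554). In mismatch repair 6 of 14 further genes fell in Hep3B, where 7.74% of all genes fell, and 0 rose, where 8.68% did (median -0.15). LIG1, the ligase that seals the repaired strand, changed by -0.43, the clamp loader gene RFC4 by -0.39 and the sliding clamp gene PCNA by -0.37. These 3 serve replication as well as repair. The others that fell were the clamp loader genes RFC1 and RFC5 and the polymerase gene POLD1. RFC5 lost its call as deposited (adjusted p = 0.123), with arrays centred (0.288) and with the mean of all probe sets (0.768). The genes of this list outside the clamp, clamp loader, polymerase and ligase, MLH3 at -0.002, PMS1 at -0.11 and MSH4 at 0.005, did not pass in Hep3B. In damage signalling 7 of 19 fell in Hep3B, where 7.74% of all genes fell, and 1 rose, where 8.68% did (median -0.11). RNF168 at -0.57 and MDC1 at -0.44, which act at marked chromatin near breaks, fell, as did the histone gene H2AX at -0.49. With the mean of all its probe sets RNF168 had -0.28 and did not pass (adjusted p = 0.088). Further Fanconi genes were mixed, with 2 of 17 higher, where 8.68% of all genes rose, and 2 lower in Hep3B, where 7.74% fell (median -0.08). REV3L, the polymerase that copies past crosslinks, rose by 0.74 and the core subunit gene FANCF by 0.47. The lower genes were MAD2L2 at -0.29 and USP1 at -0.17, and both lost the call on the values as deposited (adjusted p = 0.112 and 0.264) and with arrays centred (0.217 and 0.52). MAD2L2 also lost it without any 1 of the Hep3B controls or without ATAD2 siRNA replicate 2 or 3 (0.0559 to 0.0691). USP1 lost it in most other settings, with 0.0706 for the mean of all probe sets and 0.133 with each line fitted by itself. In SNU449, where 0.147% of all genes rose and 0.111% fell, REV3L was the 1 gene of these 4 lists that passed. In PLC 2 rose, EME1 and REV3L, where 2.34% of all genes did, and 3 fell, DNA2, RFC2 and MSH4, where 2.24% did. Without both PLC ATAD2 siRNA arrays of wide 5′ to 3′ gap, an alternative chosen after seeing the data, EME1 had 0.10 (adjusted p = 0.846) in place of 0.52, REV3L 0.17 (0.371) in place of 0.30, RFC2 -0.058 (0.872) in place of -0.36 and DNA2 -0.49 (0.0516), none of which passed. MSH4 at -0.40 lost its call on the values as deposited (-0.093, adjusted p = 0.524). Its signal in PLC was very low, at 2.76 on ATAD2 siRNA and 3.16 on control arrays, near that of PTPRC.

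Cell cycle genes moved beside the repair genes in Hep3B. Among the 42 tested genes of the E2F and G1/S list, which are made as cells enter S phase, 25 fell and 1 rose, with a median of -0.26. Of 32 G2/M genes 10 fell and 0 rose, with a median of -0.21. Over all genes 7.74% fell and 8.68% rose in Hep3B. By array the E2F and G1/S median was -0.27, -0.39 and -0.21, and the G2/M median -0.10, -0.39 and -0.07, on ATAD2 siRNA replicates 1, 2 and 3, beside -0.16, -0.27 and -0.09 for the 24 repair genes. On each of these arrays the E2F and G1/S genes were thus lowest or level with the lowest, and replicate 2 was low in all 3 lists. The part of the cell cycle in the repair genes was not tested. Genes of end joining, the other route of break repair, had 1 of 10 higher, LIG4, where 8.68% of all genes rose, and 1 lower in Hep3B, where 7.74% fell, with a median of -0.04 and array values of -0.04, 0.03 and -0.05. The lower gene, XRCC4 at -0.41 (limma, adjusted p = 0.0472), lost its call in most other settings, with 0.117 on the values as deposited and 0.235 without Hep3B ATAD2 siRNA replicate 2. In PLC the E2F and G1/S median was -0.03, with 2 of 42 lower, where 2.24% of all genes fell. In SNU449 it was -0.02, with 0 called, where 0.111% of all genes fell and 0.147% rose.

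**Figure D5:**
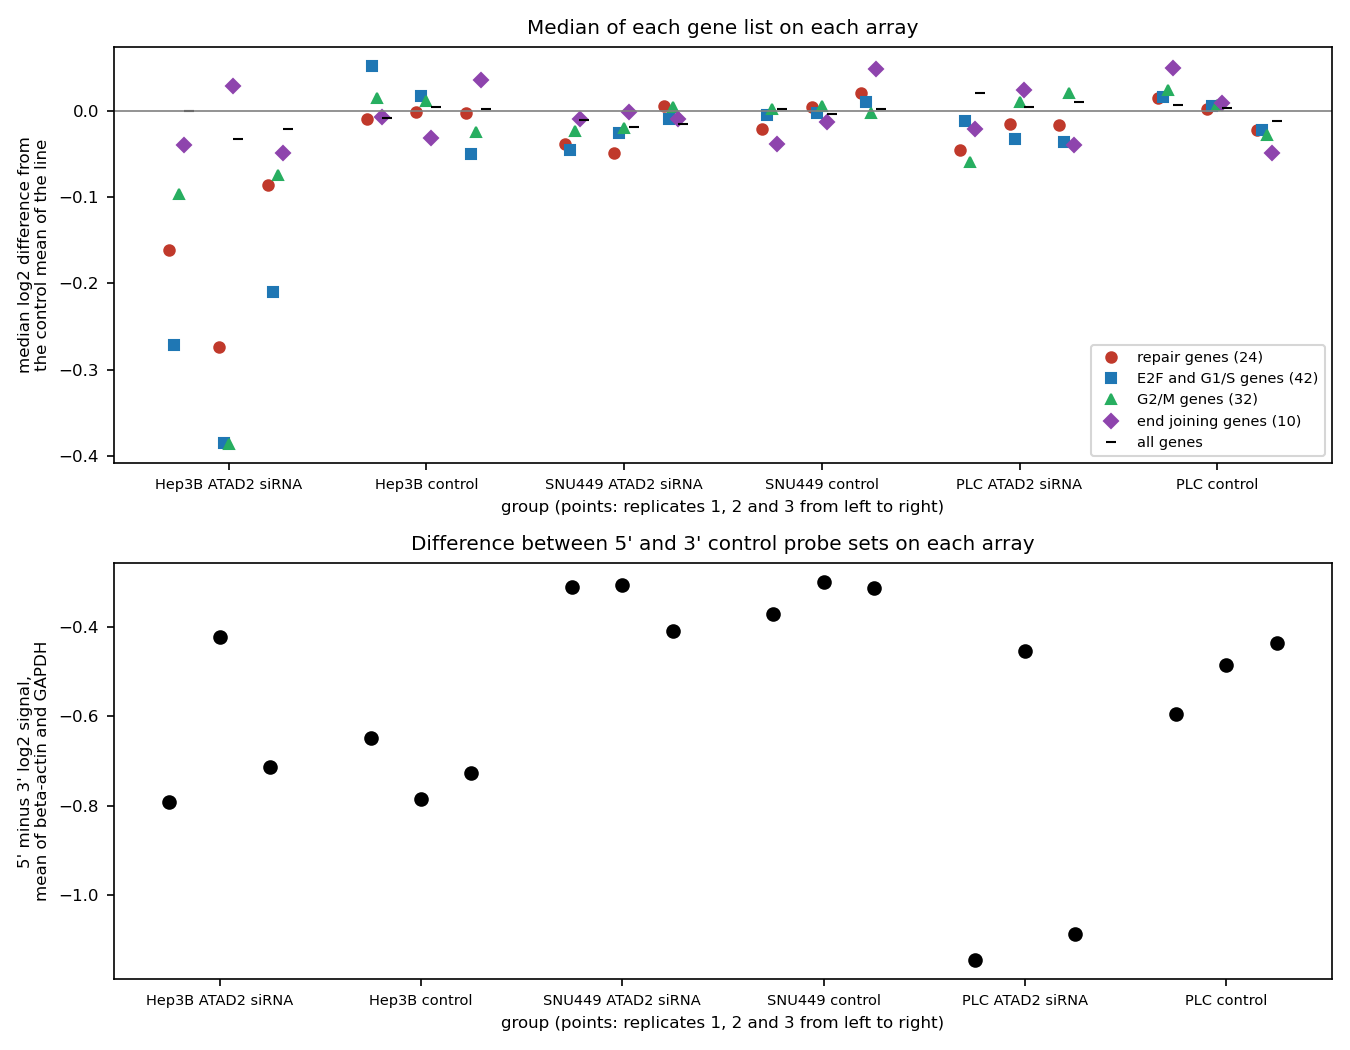
Upper panel: median log2 difference from the control mean of the line, on each array, for the 24 repair genes, E2F and G1/S genes, G2/M genes, end joining genes and all genes. Lower panel: 5′ minus 3′ log2 signal of the actin and GAPDH control probe sets on the same arrays. In Hep3B the repair genes lie at -0.16, -0.27 and -0.09 on the ATAD2 siRNA arrays, replicate 2 being the array with the 5′ to 3′ value of -0.42, while the medians in SNU449 and PLC lie near 0.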

How the data were processed

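RNA was measured on 18 one-colour expression arrays. The deposited table holds log2 values by the authors (1.33 to 14.0, scale judged from the range). The authors' background correction and normalization method is one not given in the sources used here. The submitters' processing notes name limma. The 41097 probe sets annotated to 1 gene were used (1801 had several genes, 11777 none; 41043 symbols were updated through RefSeq), and the probe set with the highest mean stood for each of 19775 genes. Values were quantile normalized over the 18 arrays and a model of 6 group means was fitted (limma 3.58.1, R 4.3.3, functions lmFit and eBayes), with 4.01 prior degrees of freedom beside 12 residual ones. Effects within lines, their differences and control levels were tested, with Benjamini-Hochberg adjustment over all genes and a threshold of 0.05. An exact permutation test of 3 against 3 arrays cannot go below 0.1 and was not used. The scripts were tested on simulated data. The main fit did not pair the arrays by replicate number, and the replicate block was an alternative. How the cultures were handled cannot be told from the values.

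All members are named, with up to 4 genes of each other list that had the largest changes past the threshold. Promoters are shown for the 6 members with the largest changes past the threshold, from RefSeq (GRCh38.p14). The members and lists were chosen with earlier results of these data known. Alternatives covered normalization, dim genes, probe set choice, fits by line, prior, replicate block, a stricter threshold and each array left out. The 5′ to 3′ covariate, the PLC arrays of wide gap left out and every probe set by itself were added after seeing the data.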

Additional observations from a re-analysis of the deposited data

Results flagged for a closer look

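By the F test of limma over all 3 lines the knockdown effect differed for 3 of 24 genes, a count near the share of 9.18% over all genes. The adjusted p of this test was 0.0133 for FANCL, 0.0151 for FANCC and 0.042 for BLM, whose call held in 9 of 29 other settings. By pair of lines, the log2 change in PLC minus that in Hep3B was 0.51 for BRCA1, 0.39 for BLM, 0.37 for FANCC, 0.36 for FANCL and 0.33 for FANCI. For FANCL the log2 change in SNU449 minus that in Hep3B was 0.45. FANCL, FANCC, BLM and FANCI fell in Hep3B, while BRCA1 passed the threshold in neither line, with -0.28 in Hep3B and 0.23 in PLC.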

How the results depend on the processing

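In Hep3B 9 genes were lowered, where 7.74% of all genes were. With the share of all genes in brackets, this count was 3 (5.9%) on the values as deposited, 2 (4.19%) with arrays centred and 5 (5.94%) with the mean of all probe sets. Those 5 were BARD1, BLM, FANCI and FANCL of the 9, and BRCA1. The count was 5 (5.72%) with each line fitted by itself, 5 (4.42%) at a threshold of 0.01 and 7 (6.15%) with a replicate block. Without single arrays it was 6 to 10 (5.31% to 8.83%). Without the dimmest 50% of genes it was 11 (17.2%), and 1 gene rose. Shares of all genes are not given for the other counts of this section, so those counts are not read as particular to repair genes. The Hep3B median was -0.087 centred and -0.083 with the mean of probe sets. The SNU449 median was 0.038 as deposited and 0.078 centred. The PLC median was -0.076 as deposited, -0.10 centred, -0.015 without both PLC arrays of wide 5′ to 3′ gap, and -0.050 to -0.026 without single arrays. In PLC 1 gene fell when centred and 1 with the mean of probe sets, and 0 to 2 fell and 0 to 1 rose without single arrays, all from PLC ATAD2 siRNA replicate 2. Over the mean of the lines the count of lowered genes, 6, was 3 as deposited, 1 centred, 3 with the mean of probe sets, 3 with the replicate block, 2 at 0.01 and 3 to 6 without single arrays. The count of genes that differed between lines, 3, was 6 without the dimmest 30% of genes, 7 without the dimmest 50%, 6 with an intensity trend and robust prior, 1 with the replicate block, 1 with the 5′ to 3′ covariate, 1 without both PLC arrays, 0 at a threshold of 0.01 and 2 to 6 without single arrays. Control differences of 1 log2 unit between PLC and Hep3B numbered 1 higher and 4 lower as deposited, 4 lower with normalization within lines, 15 higher and 0 lower centred, and 1 higher and 1 lower with the mean of probe sets. The median of all genes in this comparison itself lay at -0.62 as deposited and 0.62 centred. Between SNU449 and PLC the control differences numbered 5 higher as deposited, 5 higher within lines, 0 higher and 13 lower centred, and 2 lower with the mean of probe sets. There the median of all genes lay at 0.76 as deposited and -0.69 centred. Between SNU449 and Hep3B 2 were higher with the covariate. The causes were not tested. Of 719 single-gene values in Hep3B, 661 kept their side of the threshold, 47 lost the call and 11 gained one. The number of arrays limits the precision.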

Other observations

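Base excision repair, which removes damaged single bases, held larger changes in Hep3B than the 24 genes above. The glycosylase genes TDG and NEIL3 both fell by 0.78, UNG fell by 0.58 and OGG1 by 0.44, among 6 of 28 excision repair genes that fell and 0 that rose (median -0.01), where 7.74% of all genes fell and 8.68% rose. OGG1 did not pass on the values as deposited (-0.33, limma, adjusted p = 0.0519) or with arrays centred (-0.30, 0.102). TDG had 8.41, 8.57 and 8.35 on the Hep3B ATAD2 siRNA arrays, against 9.26, 9.22 and 9.17 on the controls. In PLC it had 9.69, 9.62 and 9.65 against 9.92, 9.97 and 9.96, a change of -0.30 (limma, adjusted p = 0.0162) that missed the threshold without PLC control replicate 2 (0.0525), with the mean of all probe sets (-0.099, 0.402), with each line fitted by itself (0.249) and with the 5′ to 3′ signal as a covariate (0.0819). LIG4, the ligase of end joining, had 8.36, 8.41 and 8.50 on the Hep3B ATAD2 siRNA arrays, against 7.74, 7.77 and 7.95 on the controls, and rose by 0.60. REV3L had 8.44, 8.60 and 8.51 in Hep3B, against 7.78, 7.77 and 7.78, and rose in SNU449 by 0.34 (limma, adjusted p = 0.0371) and in PLC by 0.30 (0.0209). Without single arrays its adjusted p reached 0.2 in SNU449 and 0.0676 in PLC. With the mean of all probe sets it had 0.31 in SNU449 (adjusted p = 0.148) and 0.10 in PLC (0.496), and in PLC it had 0.24 (0.154) with the 5′ to 3′ covariate.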
